A study of Mus musculus with 2 samples.

Results

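The 8 genes described here, Srebf2, Insig1, Hmgcs1, Idi1, Fdps, Fdft1, Sqle and Cyp51, were chosen by their symbols and belong to the cholesterol synthesis pathway that SREBP2 controls. All 8 were found among the 27998 genes counted in both libraries, each under a single gene identifier. They were followed across leukocyte classes of the visceral adipose tissue (VAT) in calorically restricted (CR) and obese mice.

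CR VAT and obese VAT came from male C57BL/6J mice, bought at 6 weeks of age and acclimated for 2 weeks. For 24 weeks both groups were fed a diet with 0.3% cholesterol in which fat supplied 60% of the kcal, and both received weekly injections of an antisense oligonucleotide at 5 mg/kg, which raises plasma LDL. By the methods text, CR mice were then held to 70% of their ad libitum intake for 2 weeks, whereas the label of the CR sample reads life-long restriction. Live CD45+ cells of perigonadal VAT were sorted and sequenced at the 3′ end of transcripts with droplets that tag each molecule with a unique molecular identifier (UMI). There was 1 library per group, the number of mice behind each library is not given in the sources used here, and a lean group was not analysed here. All intervals below are therefore 95% intervals for counting error only, no p-value was computed, and the groups cannot be told apart from their libraries.

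SREBP2 is a membrane-bound transcription factor of the endoplasmic reticulum. When membranes hold little cholesterol, the escort protein SCAP carries SREBP2 to the Golgi, where proteases release its active part, which turns on the genes of the mevalonate and sterol pathway. When sterols are plentiful, INSIG proteins hold SCAP in the endoplasmic reticulum and the pathway is turned down. Macrophages (MØs) that take up lipoproteins, dead cells and lipid from adipocytes receive much of their cholesterol from outside. Insig1 is itself a target of SREBP2, and SREBP processing is controlled at the protein level, so the RNA of Srebf2 alone does not report pathway activity.

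Levels are counts per 1e+06 UMIs of a class (CPM). They compare a gene between classes and libraries, but not 1 gene with another, because the capture of 3′ ends differs between transcripts. A CPM is a share of the RNA of a class, so that less RNA of a gene and more RNA of other genes cannot be told apart. All 8 genes are protein coding. On the GRCm38 assembly, Insig1 lies on the + strand of chromosome 5 from position 28071363 to 28078662 and Hmgcs1 on the + strand of chromosome 13 from 119690379 to 119708260. The genes Idi1 (chromosome 13), Cyp51 (chromosome 5), Srebf2 and Sqle (both chromosome 15), Fdps (chromosome 3) and Fdft1 (chromosome 14) are spread over the genome. Promoters were matched in RefSeq (GRCm38.p6) for 5 of the 8 genes. Those of Hmgcs1, the first committed step, and Insig1, the gene that differed most, are shown because both respond to the same factor. The sequences cover the bases upstream of both the RefSeq and the GENCODE gene start, 250 bases for Hmgcs1 (chr13:119690101-119690350) and 201 bases for Insig1 (chr5:28071162-28071362), on the + strand. Capitals mark matches to TCACNCCAC, the letters of a classical sterol regulatory element, and to CCAAT, the box bound by NF-Y, a partner of SREBP, on either strand, so that a CCAAT box on the opposite strand reads ATTGG.
Hmgcs1: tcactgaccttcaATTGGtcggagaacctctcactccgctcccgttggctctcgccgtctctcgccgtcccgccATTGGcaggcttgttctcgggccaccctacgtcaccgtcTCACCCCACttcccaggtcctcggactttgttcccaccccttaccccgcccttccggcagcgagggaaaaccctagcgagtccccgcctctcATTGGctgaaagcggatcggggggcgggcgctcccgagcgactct
Insig1: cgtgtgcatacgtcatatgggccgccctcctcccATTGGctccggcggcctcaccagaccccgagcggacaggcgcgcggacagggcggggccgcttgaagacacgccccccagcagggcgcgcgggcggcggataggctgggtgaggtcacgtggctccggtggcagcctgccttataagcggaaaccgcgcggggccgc
In Hmgcs1 the TCACNCCAC match begins at position -137 relative to the RefSeq start and lies among 3 CCAAT matches, at -237, -176 and -45. In Insig1 the single CCAAT match begins at -216, and TCACNCCAC did not occur in this window. Among 32851 RefSeq promoters searched over the same 250 bases, 1.05% held TCACNCCAC and 33.8% held CCAAT. Of the 5 members with a promoter entry, 1 held TCACNCCAC and 5 held CCAAT within these 250 bases. In Idi1 and Cyp51 the CCAAT matches lay after the GENCODE gene start, with 0 upstream of both starts. The motifs do not overlap each other here, and a match is a description of letters, not of binding.

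The CR library held 3562 cell barcodes and 19696476 UMIs, and the obese library 5795 barcodes and 42948242 UMIs. After filtering, 2987 cells from CR VAT and 5262 from obese VAT remained, with a median of 4802 UMIs per cell in CR VAT and 6740.5 in obese VAT, and 18 of the kept barcodes occurred in both. Clusters led by fibroblast and endothelial genes made up 17.1% of the CR cells and 2.89% of the obese cells and were set apart, which left 2477 CR and 5110 obese leukocytes. Ptprc, which encodes CD45, had a UMI in 80.2% of the CR leukocytes and 78.2% of the obese leukocytes. Of 16 leukocyte classes, 13 had at least 50 cells in both libraries. Activated MØ-like, migratory DC-like and plasma cells had fewer in CR VAT. RNA of stromal cells was found in the leukocyte classes, more so in the CR library. Over the 13 leukocyte classes, the 8 fibroblast markers summed to 219 to 609 CPM in CR VAT, against 15.7 to 93.8 CPM in obese VAT, and the 8 endothelial markers to 68.5 to 797 CPM in CR VAT, against 2.62 to 18.2 CPM in obese VAT. Fibroblast-like cells themselves had 156 CPM (139 to 175) of the 8 sterol genes in CR VAT and 145 CPM (119 to 175) in obese VAT, levels within the range of the leukocyte classes. The main results are therefore also given for cells with no UMI of these markers.

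Across all leukocytes, the sterol genes were higher in CR VAT than in obese VAT, and Insig1 stood out. The 8 genes summed to 181 CPM (95% Poisson interval 174 to 188) from 2645 UMIs in CR VAT and to 136 CPM (132 to 140.0) from 5353 UMIs in obese VAT, a ratio of 1.33 (1.27 to 1.39). Insig1, which encodes the sterol-dependent anchor of SCAP, had 47.8 CPM in CR VAT and 23.8 CPM in obese VAT, a 2.01-fold difference (1.82 to 2.22). In both cases the intervals of the libraries did not overlap. Without Insig1, the other 7 genes summed to 133 CPM in CR VAT and 112 CPM in obese VAT, a ratio of 1.19 (1.13 to 1.25).

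Among the 8 genes, 1 was at least 1.5-fold higher in CR leukocytes and 0 were at least 1.5-fold lower, with 5 CPM added to each side. Of 13041 genes with at least 20 UMIs in the 2 libraries, 5.69% were as much higher and 1.47% as much lower. Among the 2696 genes that also reached 50 CPM, a level none of the 8 genes reached in either pool of leukocytes, the share higher was 8.12%. All 8 log2 ratios were above 0, as were 68.5% of those of all genes, but with TMM scaling factors or in cells without stromal marker UMIs 4 of the 8 were. The median of the 8 was 0.22, against 0.09 over all genes. The counting interval of the ratio lay above 1 for 5 of the 8 genes, against 39.8% of all genes. The 1 member past the fold is too few to set apart from the background. With TMM scaling factors the median of all genes moved to -0.02, a shift of -0.12. Relative to the median of all genes, the sum was higher by 0.31 on the log2 scale with library totals and by 0.22 with TMM factors, and Insig1 by 0.78 and 0.71.

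The early enzymes of the mevalonate pathway showed small ratios in the pooled leukocytes. Hmgcs1, which makes HMG-CoA, had 21.4 CPM in CR VAT and 16.2 CPM in obese VAT (ratio 1.32, 1.15 to 1.52). Idi1, which interconverts the 2 isoprene building blocks, had 13.7 CPM in CR VAT and 10.4 CPM in obese VAT (ratio 1.31, 1.10 to 1.56). Fdps, which joins them into farnesyl diphosphate, had 46.8 CPM in CR VAT and 40.6 CPM in obese VAT (ratio 1.15, 1.05 to 1.26). These intervals lay above 1 and the ratios stayed under 1.5-fold. The direction was not stable for any of these 3 enzymes. The log2 ratio of Fdps was -0.0077 with TMM factors, that of Idi1 was -0.09 in cells thinned to equal depth, and those of Hmgcs1 and Idi1 were -0.29 and -0.21 in cells without stromal marker UMIs. The last 300 bases of Fdps match 6 processed pseudogenes over at least 90 bases, so its counts may depend on how such reads were assigned.

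The enzymes that turn farnesyl diphosphate into sterols had ratios between 1.08 and 1.40. Sqle, squalene epoxidase, had 6.85 CPM in CR VAT and 4.88 CPM in obese VAT (ratio 1.40, 1.09 to 1.80). Fdft1, squalene synthase, had 6.09 CPM in CR VAT and 5.62 CPM in obese VAT (ratio 1.08, 0.839 to 1.39). Cyp51, which removes a methyl group from lanosterol, had 15.7 CPM in CR VAT and 13.6 CPM in obese VAT (ratio 1.15, 0.983 to 1.35). The intervals of Fdft1 and Cyp51 included 1, and so did that of Srebf2, with 22.8 CPM in CR VAT and 21.0 CPM in obese VAT (ratio 1.08, 0.952 to 1.23). The 3′ ends of Fdft1 and Cyp51 overlap Ctsb and Akap9 on the opposite strand, and the sources used here do not state that strand was used in counting. Ctsb, which encodes a lysosomal protease, had 164319 UMIs in the 2 libraries and Akap9 had 2277, and the values of Fdft1 and Cyp51 are uncertain for that reason.

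The mixture of cells differed between the libraries. Phagocytic MØ-like cells were 23.3% of CR leukocytes (exact binomial 95% interval 21.7 to 25.1) and 8.63% of obese leukocytes (7.87 to 9.43), and Major MØ-like cells were 11.1% of CR leukocytes (9.93 to 12.4) and 27.7% of obese leukocytes (26.4 to 28.9). When the CR classes were weighted by the shares of the obese library, the log2 ratio of the sum was 0.34, and with CR shares in both it was 0.43, against 0.40 as measured. For Insig1 these values were 0.78 and 0.90, against 0.87. The difference in the sum and in Insig1 was thus present at equal class shares, whereas for Idi1 the log2 ratio was -0.03 at obese shares and 0.16 at CR shares, against 0.28 as measured.

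**Figure D1:**
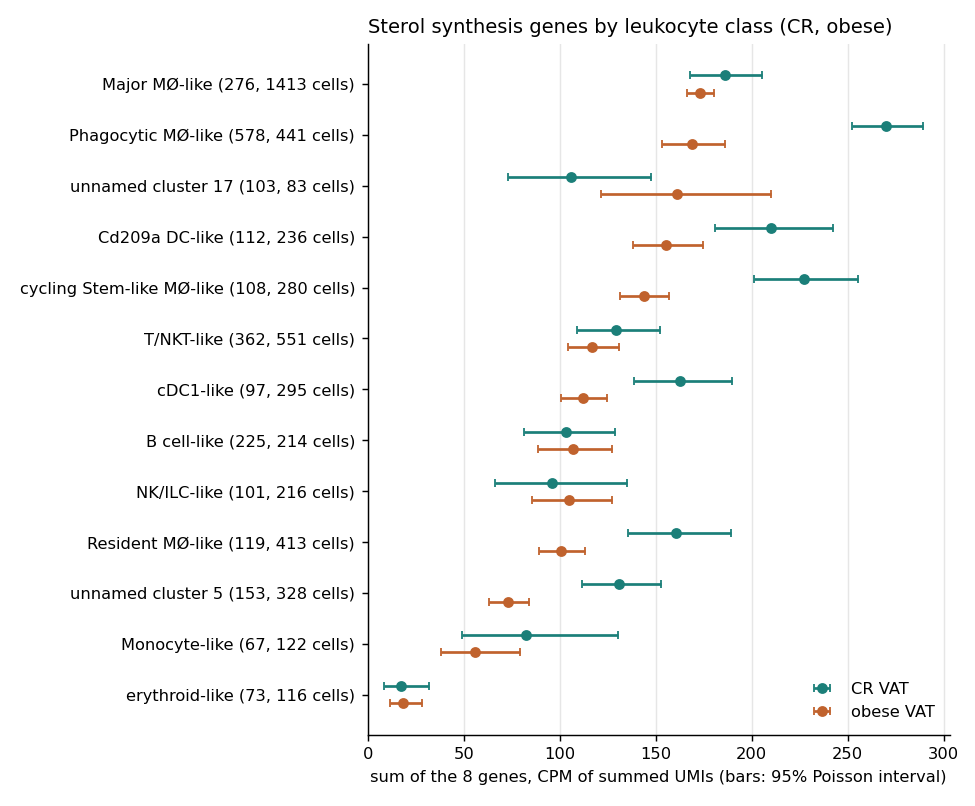
Sum of the 8 sterol genes in 13 leukocyte classes, as CPM of summed UMIs on the horizontal axis, with CR VAT above obese VAT in each class and bars for the 95% Poisson interval of 1 library each. Phagocytic MØ-like cells were highest in CR VAT (270.2 CPM), while in obese VAT they and Major MØ-like cells lay at 169 and 173 CPM.

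Within classes, the interval of the ratio of the sum lay above 1 in 6 of 13. Of these, Phagocytic MØ-like cells had the most UMIs of the 8 genes, and an unnamed cluster had the largest ratio, 1.80 (1.45 to 2.23). Phagocytic MØ-like cells are a class with all 10 of its markers raised, such as Fcgr4, an activating Fc receptor, and Lipg, a lipase. The 8 genes summed to 270.2 CPM (252 to 289) from 838 UMIs in 578 CR cells and to 169 CPM (153 to 186) from 421 UMIs in 441 obese cells, a ratio of 1.60 (1.42 to 1.80). In CR VAT this was the highest level of the 15 leukocyte classes ordered, and the interval of its ratio to the next class, the cycling cells, excluded 1. In obese VAT Phagocytic and Major MØ-like cells led together and did not differ beyond their intervals.

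Insig1 had 75.8 CPM (66.4 to 86.1) in CR Phagocytic MØ-like cells and 33.7 CPM (26.9 to 41.8) in obese ones, a ratio of 2.25 (1.74 to 2.92). Fdps had 73.2 CPM in CR cells and 44.6 CPM in obese cells of this class (ratio 1.64, 1.30 to 2.08). Hmgcs1 had 28.4 CPM in CR cells and 19.7 CPM in obese cells (ratio 1.44, 1.01 to 2.09). These 3 genes and Idi1, with 29.7 CPM in CR cells and 18.9 CPM in obese cells (ratio 1.57, 1.09 to 2.28), were the 4 members whose interval lay above 1, against 18.7% of 9038 genes.
At least 1.5-fold higher were 2 members, Insig1 and Fdps, against 8.18% of these genes (9.53% of those at 50 CPM), and 0 were as much lower, against 6.88%. All 8 log2 ratios were above 0, with a median of 0.44, while 58.2% of all genes were above 0, with a median of 0.07. Srebf2 itself had 21.9 CPM in CR cells and 20.9 CPM in obese cells of this class (ratio 1.05, 0.721 to 1.54). Without Insig1 the remaining 7 genes had a ratio of 1.44 (1.26 to 1.65). In cells thinned to equal depth the log2 ratio was -0.28 for Hmgcs1 and -0.08 for Idi1. With the cells of highest doublet score removed, or with the libraries clustered without alignment, 1 member was past the fold.

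The Phagocytic MØ-like cells of the libraries were not the same mixture. Their 12 Major MØ markers summed to 4292 CPM in CR VAT and 11716 CPM in obese VAT, and 9 of these 12 were at least 1.5-fold lower in CR. Cells of the class with under 5 UMIs of MHC class II genes numbered 490 in CR VAT and 157 in obese VAT. In those cells the sum was 269.6 CPM in CR VAT and 202 CPM in obese VAT (ratio 1.33, 1.12 to 1.60), and Insig1 was 77.7 CPM in CR VAT and 33.9 CPM in obese VAT (ratio 2.29, 1.51 to 3.62). Within obese VAT the sum was 202 CPM in cells under 5 and 155 CPM in cells with 5 or more MHC class II UMIs (ratio 1.30, 1.06 to 1.60), and Insig1 was 33.9 CPM and 33.6 CPM in the same order. In cells with 5 or more such UMIs, 88 from CR VAT and 284 from obese VAT, the ratio was 1.76 (1.41 to 2.195) for the sum and 1.90 (1.17 to 3.02) for Insig1. The log2 ratio of the sum in cells under 5 minus that in cells with 5 or more was -0.40 (-0.80 to -0.0029), and that of Insig1 was 0.27 (-0.61 to 1.15), an interval that included 0. The part of the mixture in the ratio of the whole class was not tested further.
In the cells without stromal marker UMIs, 96 from CR VAT and 348 from obese VAT, the sum was 232 CPM in CR and 153 CPM in obese cells (ratio 1.52, 1.21 to 1.90). Insig1 was 78.1 CPM in CR and 31.4 CPM in obese cells of this kind (ratio 2.48, 1.60 to 3.79), as large as in the whole class. Hmgcs1 had 9 UMIs in CR and 39 in obese cells there, and Idi1 had 9 UMIs in CR and 38 in obese cells, with ratios of 0.944 (0.402 to 1.98) and 0.969 (0.412 to 2.04), so the higher levels of these 2 enzymes did not appear in this subset, although the intervals include the ratios of the whole class.
Over all leukocytes without stromal marker UMIs, 438 from CR VAT and 4007 from obese VAT with medians of 3349.5 UMIs in CR and 6474 UMIs in obese cells, the sum was 149 CPM in CR and 131 CPM in obese cells (ratio 1.14, 1.01 to 1.29). Insig1 was 49.4 CPM in CR and 22.7 CPM in obese cells (ratio 2.18, 1.73 to 2.71), and Fdps was 38.1 CPM in both (ratio 1.00, 0.775 to 1.27). The part of stromal RNA in the ratios of the other genes was not tested further.

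**Figure D2:**
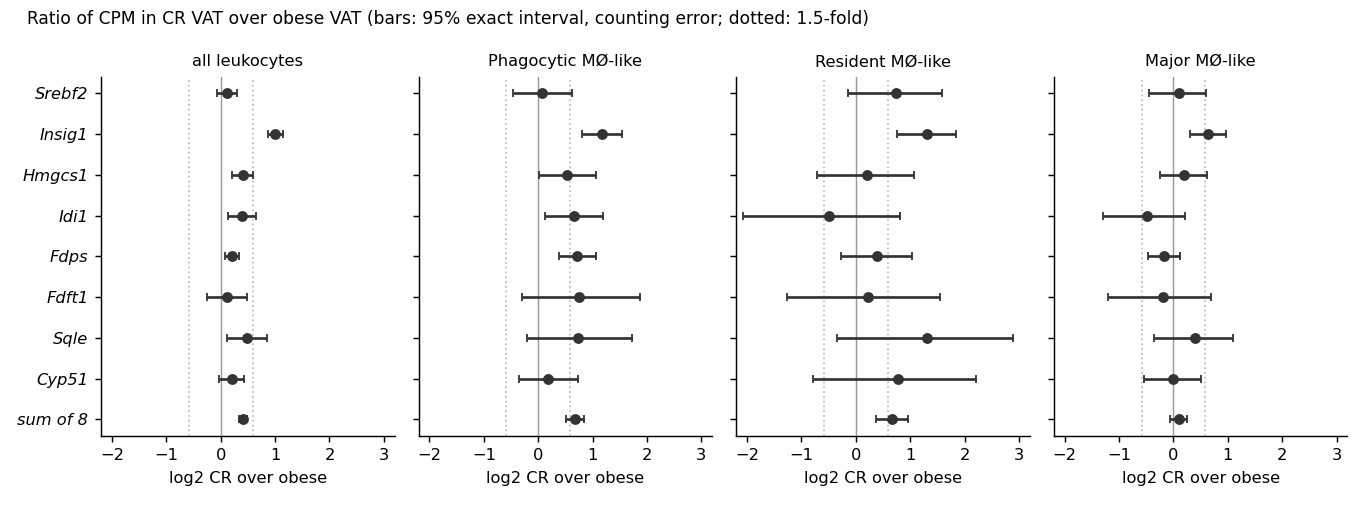
Log2 ratio of CPM in CR VAT over obese VAT for the 8 genes and their sum in all leukocytes and 3 MØ classes, with bars for the exact 95% counting interval and dotted lines at 1.5-fold in either direction. Insig1 lies above 0 with its whole interval in each of the 4 panels, and the sum does so in all but Major MØ-like cells.

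Major MØ-like cells, a class led by Trem2, Gpnmb and Apoe, genes of lipid-handling MØs, showed little difference in the sum. The 8 genes had 186 CPM (168 to 205) in 276 CR cells and 173 CPM (166 to 181) in 1413 obese cells, a ratio of 1.07 (0.962 to 1.20). Of the 8 genes, 0 reached 1.5-fold in either direction, where 5.42% of 10471 genes were as much higher and 1.25% as much lower. Of the log2 ratios, 4 of 8 were above 0, against 57.6% of all genes. Insig1 was the 1 gene whose interval lay above 1 (15.8% of all genes), with 46.5 CPM in CR cells and 29.8 CPM in obese cells (ratio 1.56, 1.24 to 1.95). Its log2 ratio with 5 CPM added was 0.57, but it was 0.02 when the libraries were clustered without alignment, 0.14 at a finer clustering and 0.05 in cells thinned to equal depth. Without Insig1 the ratio of the other 7 was 0.972 (0.857 to 1.10). Idi1 had 8.54 CPM in CR cells and 12.0 CPM in obese cells (ratio 0.710, 0.410 to 1.16).

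The ratio in Phagocytic MØ-like cells exceeded that in Major MØ-like cells. For the sum, the log2 ratios, with nothing added, were 0.68 in Phagocytic and 0.10 in Major MØ-like cells, a difference of 0.57 (0.35 to 0.80). Against T/NKT-like cells, at 0.15, the difference was 0.53 (0.20 to 0.86). Resident MØ-like cells, at 0.67, had a like ratio, with a difference of 0.0040 (-0.33 to 0.34), and for 0 of the 8 genes did the interval of that difference exclude 0. Between Phagocytic and Major MØ-like cells the difference was 0.88 (0.45 to 1.32) for Fdps, 1.15 (0.28 to 2.01) for Idi1 and 0.52 (0.04 to 1.01) for Insig1. For the other 5 genes the interval of this difference included 0. These intervals cover counting error within 1 library each.

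Resident MØ-like cells, which carry Lyve1, a hyaluronan receptor, and Folr2, a folate receptor, had the sum at 161 CPM (143 UMIs) in 119 CR cells and 101 CPM (285 UMIs) in 413 obese cells (ratio 1.59, 1.29 to 1.96). Insig1 was again the main part, with 58.4 CPM in CR cells and 23.7 CPM in obese cells (ratio 2.47, 1.68 to 3.60). The other 7 genes had a ratio of 1.33 (1.03 to 1.70). At least 1.5-fold higher were 2 of the 8 members, Insig1 and Sqle, against a background of 14.5% of genes with 20 UMIs. Sqle, on 7 UMIs in CR and 9 UMIs in obese cells, lies outside that background. The CR cells of this class also held the 797 CPM of endothelial markers given above, against 10.6 CPM in the obese cells, and the part of that RNA in the ratios was not tested. Genes of cell division were higher there too, 4 of 12 measured at least 1.5-fold, with a median log2 ratio of 0.39, against 0.15 over all genes. The 10 markers of cycling cells summed to 376 CPM in CR and 203 CPM in obese Resident MØ-like cells, with 4 of 8 measured past the fold, and their part in the ratios was not tested.

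Several other classes repeated the pattern of Insig1 more than that of the enzymes. Insig1 was at least 1.5-fold higher in CR in 10 of 13 leukocyte classes, as were 1.02% of 13041 genes in at least as many. Its interval lay above 1 in 10 classes (0.890% of genes). These genes needed 20 UMIs in the pooled leukocytes and had no minimum per class. Genes with few UMIs could hardly be called in so many classes, so the shares do not compare Insig1 with genes of its level. In 1 class, the erythroid-like cells, Insig1 was past the fold downwards with 0 UMIs in CR and 4 in obese cells, a value that rests on the 5 CPM added. Of genes with 20 UMIs in that class, 64.3% were as much lower. The count past the fold upwards holds Monocyte-like cells, with 8 UMIs in CR and 9 in obese cells and an interval that included 1. The count by interval holds Major MØ-like cells, whose ratio fell short of the fold. Over the same classes, Hmgcs1 was past the fold upwards in 4 classes and downwards in 1, Sqle and Fdps each in 3 upwards and 1 downwards, and Idi1 in 3 upwards and 2 downwards. Fdft1 and Cyp51 were past it upwards in 0 classes and downwards in 1 each, and Srebf2 in 0 upwards and 3 downwards, several of these on few UMIs. The erythroid-like cells are among the 3 classes of Srebf2. In B cell-like cells Insig1 had 35.7 CPM in CR VAT and 17.8 CPM in obese VAT (ratio 2.01, 1.09 to 3.74), while the other 7 genes had a ratio of 0.759 (0.532 to 1.07). There 1 member was past the fold upwards and 2 downwards, against 11.6% and 10.6% of genes with 20 UMIs. The 2 were Srebf2, with 9 UMIs in CR and 25 in obese cells, and Idi1. Idi1, with 2 UMIs in CR and 10 in obese cells, lies outside the genes of that share. In T/NKT-like cells Insig1 had 29.8 CPM in CR VAT and 17.6 CPM in obese VAT (ratio 1.69, 1.05 to 2.70). It was the 1 member past the fold, against 11.0% of genes, while the other 7 genes had a ratio of 1.00 (0.794 to 1.26). In both lymphocyte classes the interval of Insig1 lay above 1 and that of the other members together included 1.
In cDC1-like cells, dendritic cells that carry Xcr1, Insig1 had 26.8 CPM in CR VAT and 12.3 CPM in obese VAT (ratio 2.17, 1.28 to 3.65), and Fdps 52.6 CPM in CR VAT and 30.5 CPM in obese VAT (ratio 1.72, 1.21 to 2.44). In Cd209a DC-like cells Insig1 had 53.1 CPM in CR VAT and 27.1 CPM in obese VAT (ratio 1.96, 1.29 to 2.98), and Hmgcs1 32.8 CPM in CR VAT and 11.9 CPM in obese VAT (ratio 2.75, 1.52 to 5.02). Both dendritic classes had 2 members at least 1.5-fold higher, against 8.82% of genes in cDC1-like and 9.04% in Cd209a DC-like cells. In cDC1-like cells Fdft1 was past the fold downwards, on 1 UMI in CR and 15 in obese cells. The share of genes as much lower was 2.93%, over genes with 20 UMIs, which Fdft1 did not reach there. An unnamed cluster led by S100a8 and Saa3, genes of inflamed myeloid cells, had Insig1 at 47.5 CPM in CR VAT and 18.9 CPM in obese VAT (ratio 2.51, 1.69 to 3.74). Its sum was 131 CPM in CR VAT and 73.1 CPM in obese VAT (ratio 1.80, 1.45 to 2.23). Without Insig1 the ratio of its other 7 genes was 1.55 (1.19 to 2.01). Past the fold upwards were 4 members, Insig1, Fdps, Idi1 and Sqle, against 7.30% of genes with 20 UMIs. Sqle, on 7 UMIs in CR and 2 in obese cells, lies outside the genes of that share.
Activated MØ-like cells, with 38 CR cells too few for the count of classes, had Insig1 at 54.0 CPM from 18 UMIs in CR VAT and 31.5 CPM from 71 UMIs in obese VAT. NK/ILC-like cells did not show the difference, with Insig1 at 14.6 CPM from 5 UMIs in CR VAT and 17.3 CPM from 17 UMIs in obese VAT (ratio 0.842, 0.243 to 2.38), an interval too wide to exclude the ratio of the pooled leukocytes. Outside the leukocytes, Fibroblast-like cells had 39.3 CPM in CR VAT and 34.2 CPM in obese VAT (ratio 1.15, 0.723 to 1.88).

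**Figure D3:**
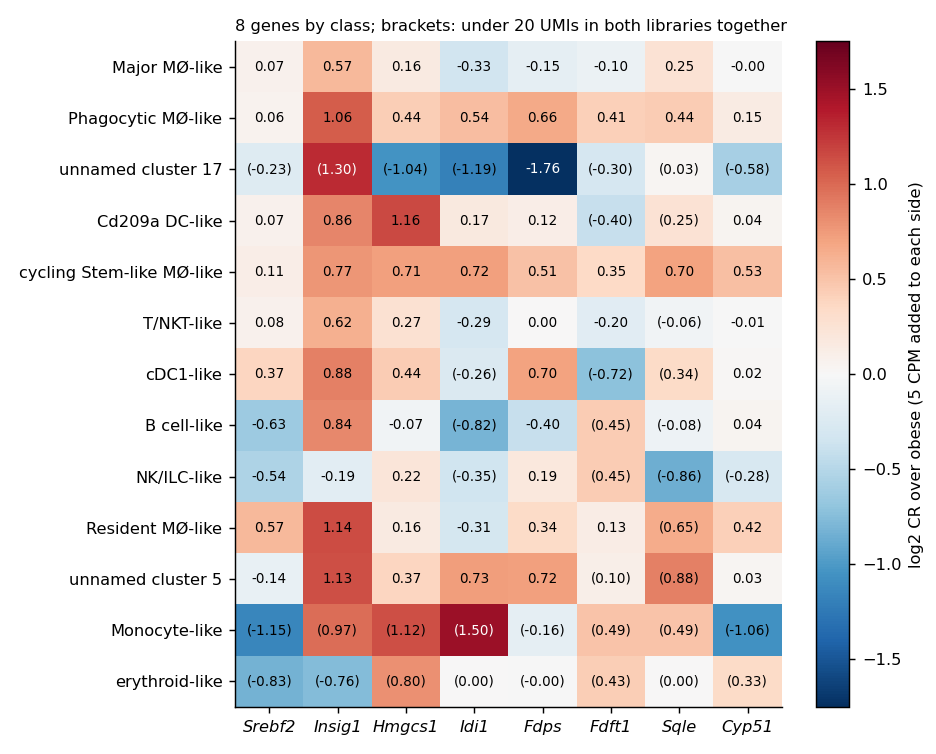
Log2 ratio of CR over obese, with 5 CPM added to each side, for the 8 genes (columns) in 13 leukocyte classes (down the side), red where CR is higher and blue where it is lower, with brackets where the libraries together held under 20 UMIs. The Insig1 and Hmgcs1 columns are each red in 11 of 13 classes, past 1.5-fold upwards in 10 classes for Insig1 and in 4 for Hmgcs1. The other columns are red in 5 (Idi1) to 9 (Sqle) classes.

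Cycling cells showed a difference over several members, as did the unnamed cluster led by S100a8 and Saa3, each with 4 past the fold upwards. The cycling class, led by Top2a and Mki67, genes of dividing cells, joined 2 clusters. Of these, 1 was also led by the dendritic genes Irf8 and Naaa. The 8 genes summed to 227 CPM (275 UMIs) in 108 CR cells and 144 CPM (506 UMIs) in 280 obese cells (ratio 1.58, 1.36 to 1.83). At least 1.5-fold higher were 4 members, against 11.0% of genes, namely Insig1, Idi1, Hmgcs1 and Sqle. Sqle had 12.4 CPM from 15 UMIs in CR VAT and 5.69 CPM from 20 UMIs in obese VAT (ratio 2.18, 1.04 to 4.47). Without Insig1 the ratio of the other 7 was 1.53 (1.30 to 1.80), close to that with it. A cluster with mast cell genes and Il17a went the other way for Fdps, with 15.5 CPM from 5 UMIs in CR VAT and 64.5 CPM from 22 UMIs in obese VAT (ratio 0.241, 0.0713 to 0.652), and it mixes cell types, so it has no name. In that cluster 3 members were past the fold downwards, against 10.7% of genes with 20 UMIs. These were Fdps and, on few UMIs, Idi1 (2 in CR, 7 in obese cells) and Hmgcs1 (1 in CR, 4 in obese cells). Idi1 and Hmgcs1 lie outside the genes of that share.

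Over classes, each gene had its own order of levels within a library. Idi1 was highest in migratory DC-like cells, which carry Ccr7, the receptor that guides cells to lymph nodes. There it had 57.7 CPM (34.7 to 90.1) in CR VAT and 49.5 CPM (33.1 to 71.1) in obese VAT, from 19 UMIs of 46 cells in CR VAT and 29 UMIs of 81 cells in obese VAT. In both libraries the interval of the ratio to the next class in the order excluded 1, and that class was Phagocytic MØ-like in CR VAT at 29.7 CPM and the cluster with mast cell genes in obese VAT at 20.5 CPM. Srebf2 was highest in cDC1-like cells, with 53.6 CPM (40.3 to 69.97) in CR VAT and 40.3 CPM (33.5 to 48.0) in obese VAT, followed by Cd209a DC-like cells with 39.5 CPM in CR VAT and 37.4 CPM in obese VAT. These neighbours did not differ beyond their intervals. The class with the most Srebf2 was not the class with the most Hmgcs1. Hmgcs1 had 11.9 CPM in CR and 7.47 CPM in obese cDC1-like cells, against 28.4 CPM in CR and 19.7 CPM in obese Phagocytic MØ-like cells. Fdps lay closer in these 2 classes. It had 52.6 CPM in CR and 30.5 CPM in obese cDC1-like cells, against 73.2 CPM in CR and 44.6 CPM in obese Phagocytic MØ-like cells.
Fdps was highest in Phagocytic MØ-like cells in CR VAT, at 73.2 CPM, and in the cluster with mast cell genes and in Major MØ-like cells in obese VAT, at 64.5 and 59.7 CPM. Erythroid-like cells, which hold mostly haemoglobin RNA, were lowest for the sum in both libraries, with 17.4 CPM from 10 UMIs in CR VAT and 18.4 CPM from 21 UMIs in obese VAT. In the order of the sum over the 15 leukocyte classes, 2 of 14 neighbouring pairs in CR VAT and 3 of 14 in obese VAT had a ratio whose interval excluded 1.

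**Figure D4:**
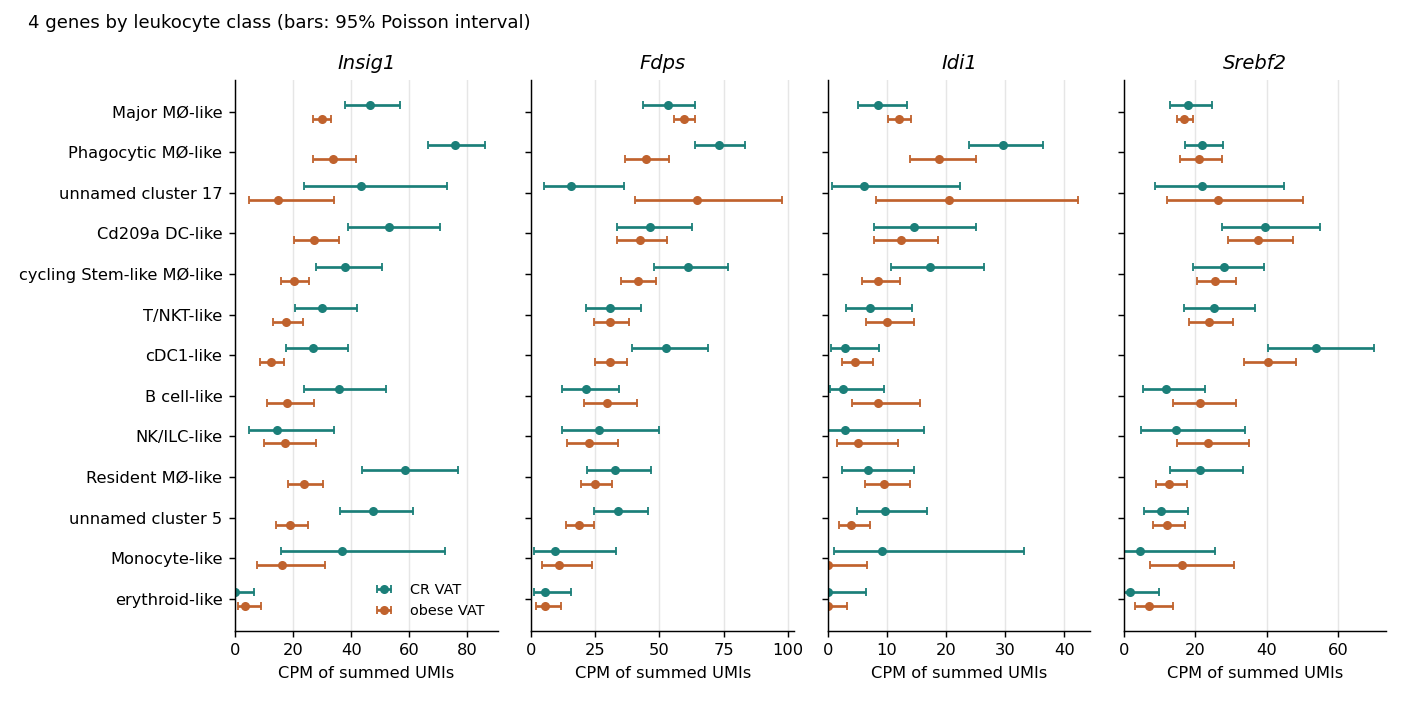
Levels of Insig1, Fdps, Idi1 and Srebf2 in 13 leukocyte classes, as CPM of summed UMIs, with CR VAT above obese VAT and bars for the 95% Poisson interval. Insig1 is highest in Phagocytic MØ-like cells in both libraries (75.8 CPM in CR, 33.7 CPM in obese), while Srebf2 is highest in cDC1-like cells.

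In single cells these genes were sparse. Thinned to 1500 UMIs per cell, 11.9% of CR Phagocytic MØ-like cells (9.41 to 14.9) and 4.54% of obese ones (2.79 to 6.92) had an Insig1 UMI, and before thinning 26.3% of CR and 14.97% of obese cells did, at median depths of 4782.5 UMIs in CR and 4867 in obese cells. In erythroid-like cells, which should make little sterol, thinned shares were 0 of 73 CR cells, which allows a share of up to 4.11%, and 0.862% of obese cells, and unthinned shares were 0% in CR cells, at a median of 7870 UMIs, and 2.59% in obese cells, at 9377 UMIs. The thinned Insig1 share of CR Phagocytic MØ-like cells was above these shares and that limit, whereas the interval of the obese share included 4.11%. Erythroid-like cells hold mostly haemoglobin RNA, which leaves few of the 1500 UMIs for other genes. The limit of 4.11% follows from the number of cells. The shares in erythroid-like cells therefore do not measure background, and nothing is concluded from them. In Major MØ-like cells the thinned share was 4.35% in CR (2.27 to 7.47) and 4.60% in obese cells (3.57 to 5.83), so the higher Insig1 CPM of CR cells of that class was not seen at equal depth. For Idi1 in Phagocytic MØ-like cells the thinned share was 3.46% in CR and 3.85% in obese cells, against 11.9% of CR and 8.62% of obese cells unthinned.

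Across 28 points, each a class in a library with at least 50 cells, the 8 genes varied together, as a description without a test. All 28 pairs of members had a positive Pearson correlation of log2(CPM + 5), from 0.34 (Hmgcs1 with Srebf2) to 0.80 (Fdps with Cyp51), with a median of 0.59. Without the erythroid-like points, 27 of 28 pairs were positive, with a median of 0.44 and a range of -0.10 to 0.74 over 26 points. The sum of the 8 correlated at 0.03 with the log2 median UMIs of the points. Among 4876 genes, Atp6v1d, a subunit of the lysosomal proton pump, had the pattern most like the sum (0.92, or 0.75 without the erythroid-like points). It was followed by Ywhah (0.91), Mrpl55 (0.90), Ppp2ca (0.90), Bcat2 (0.89), Prkcsh (0.89), Vcp (0.89), Napa (0.88), 2210013O21Rik (0.88) and Ndufv2 (0.88). Without the erythroid-like points the correlations of these genes fell to between 0.60 (Ndufv2) and 0.73 (Ywhah). The points share libraries and library-wide RNA, so they are not independent.

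The remaining sterol enzymes were near the other genes over all leukocytes. Of 16 further enzymes, 0 were at least 1.5-fold higher and 0 lower in CR, with a median log2 ratio of 0.10, against 0.09 over all genes. Among the largest were Ggps1, which makes geranylgeranyl diphosphate (15.1 CPM in CR VAT, 10.0 CPM in obese VAT, log2 ratio 0.42), Lbr, a sterol reductase and lamin receptor (0.33), and Mvd (0.32). Among Phagocytic MØ-like cells the 12 with 20 UMIs had a median of 0.16, against 0.07 over all genes. At least 1.5-fold higher were 3 of these 12 enzymes, against 8.18% of all genes. These were Acat2 (10.6 CPM in CR cells, 2.41 CPM in obese cells), Mvd (22.6 CPM in CR cells, 11.2 CPM in obese cells) and Msmo1 (62.2 CPM in CR cells, 37.3 CPM in obese cells, ratio 1.67, 1.29 to 2.16). The first makes acetoacetyl-CoA, the second isopentenyl diphosphate, and the third acts after Cyp51. Sc5d, the fourth by size, had 11.9 CPM in CR cells and 6.42 CPM in obese cells. In Major MØ-like cells 0 of 15 were past the fold in either direction, with a median of -0.05.

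The 13 measured genes of SREBP processing and lipoprotein uptake had a median log2 ratio of 0.09 over all leukocytes. In CR leukocytes 2 were at least 1.5-fold higher and 0 lower, against 5.69% and 1.47% of all genes. These were Rnf145, a ubiquitin ligase of the sterol response (26.4 CPM in CR VAT, 14.6 CPM in obese VAT, ratio 1.81, 1.58 to 2.06), and Sort1, a sorting receptor (17.05 CPM in CR VAT, 9.28 CPM in obese VAT, ratio 1.84, 1.56 to 2.16). In the pooled leukocytes Npc2 and Lipa went the other way by less than that fold. Npc2, which binds cholesterol in the lysosome, had 653 CPM in CR VAT and 914 CPM in obese VAT (ratio 0.715, 0.699 to 0.731). Lipa, the lysosomal acid lipase, had 209 CPM in CR VAT and 279 CPM in obese VAT (ratio 0.751, 0.721 to 0.781). Within Major, Phagocytic and Resident MØ-like cells the Lipa ratios were 0.956, 0.934 and 1.13, with intervals that included 1. Those of Npc2 were 0.880, 0.580 and 0.902 in the same order, with intervals below 1. The part of the class shares in the pooled ratios of these genes was not tested.

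LXR, the nuclear receptor that answers to oxysterols, controls the genes that export cholesterol. The 10 genes of this list had a median log2 ratio of -0.05 over all leukocytes. In CR leukocytes 2 were at least 1.5-fold higher and 2 as much lower, against 5.69% and 1.47% of all genes. The higher ones were Abcg1, a cholesterol exporter (159.8 CPM in CR VAT, 66.6 CPM in obese VAT, ratio 2.40, 2.27 to 2.54), and Mylip, a ubiquitin ligase (28.3 CPM in CR VAT, 11.3 CPM in obese VAT, ratio 2.50, 2.18 to 2.86). Lower were Apoe (4712 CPM in CR VAT, 8229 CPM in obese VAT, ratio 0.573), an apolipoprotein and a marker of Major MØs, whose share of leukocytes was smaller in CR VAT, and Pltp, a phospholipid transfer protein (658 CPM in CR VAT, 1042 CPM in obese VAT, ratio 0.632). Within Major MØ-like cells Abcg1 and Mylip were the 2 genes of the list past the fold, and 0 were lower. They had 153 and 34.2 CPM in CR cells, against 73.2 and 9.33 CPM in obese cells. Of all genes in that class, 5.42% were as much higher and 1.25% as much lower.
In Phagocytic MØ-like cells 3 of 9 were higher and 2 lower, against 8.18% and 6.88% of all genes. Among the higher ones were Abcg1 (415 CPM in CR cells, 211 CPM in obese cells) and Nr1h3, which encodes LXR alpha (114.8 CPM in CR cells, 63.4 CPM in obese cells). Lower were Apoe (1040.1 CPM in CR cells, 4923 CPM in obese cells) and Abca1 (8.70 CPM in CR cells, 19.3 CPM in obese cells).

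The 10 measured genes of fatty acid synthesis, controlled by the related factor SREBP1, had a median log2 ratio of 0.20 over all leukocytes. In CR leukocytes 1 was at least 1.5-fold higher and 0 lower, against 5.69% and 1.47% of all genes. It was Scd2, a desaturase, with 10.0 CPM in CR VAT and 4.96 CPM in obese VAT (ratio 2.02, 1.62 to 2.51). Next by size were Scd1 (log2 ratio 0.46), Acly, which supplies acetyl-CoA (0.31), and Fads1, a desaturase of long chains (-0.31). Of the 7 measured in Phagocytic MØ-like cells, 1 was higher, Scd2, and 1 lower, Scd1, with 3.55 CPM in CR cells and 8.43 CPM in obese cells. Of all genes in that class, 8.18% were as much higher and 6.88% as much lower.

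Genes that respond to handling of tissue differed between the libraries in some classes. Of 16 immediate early and heat shock genes, 4 were at least 1.5-fold higher in CR leukocytes, with a median of 0.35: Hspa1a (206 CPM in CR VAT, 105 CPM in obese VAT), Fosb (289 CPM in CR VAT, 165 CPM in obese VAT), Hspa1b and Dnajb1 (log2 ratios 0.75 and 0.66). In Major MØ-like cells 5 of 16 were higher, with a median of 0.45. The ratio in that class was 1.07 (0.962 to 1.20) for the sterol sum and 1.56 (1.24 to 1.95) for Insig1. In Phagocytic MØ-like cells 1 of 16 was higher, Fosb, with 375 CPM in CR cells and 182 CPM in obese cells, and the median was 0.07, equal to that of all genes. In Resident MØ-like cells 0 were higher and 3 lower, Zfp36, Dusp1 and Jund. The part of handling in the ratios was not tested. Of 18 cell division genes 0 were higher and 1 lower in CR leukocytes, Ube2c, with 38.4 CPM in CR VAT and 61.2 CPM in obese VAT, while in Phagocytic MØ-like cells 0 of 11 were higher and 3 lower. Of 14 glycolysis genes 1 was higher, Pfkl, with 32.2 CPM in CR VAT and 19.6 CPM in obese VAT. For comparison, 5.69% of all genes with 20 UMIs were at least 1.5-fold higher and 1.47% as much lower in all leukocytes. These shares were 5.42% and 1.25% in Major, 8.18% and 6.88% in Phagocytic, and 14.5% and 3.19% in Resident MØ-like cells.

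**Figure D5:**
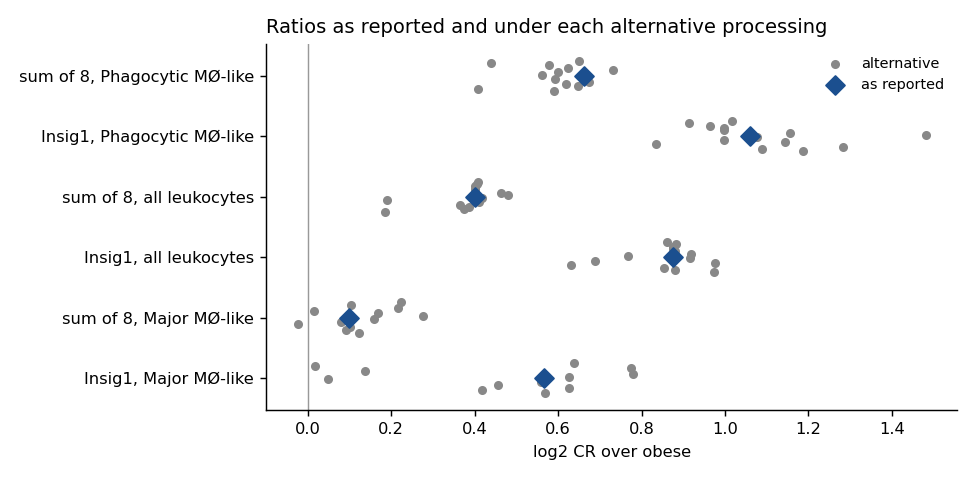
Log2 ratio of CR over obese for the sum of the 8 genes and for Insig1 in Phagocytic MØ-like cells, all leukocytes and Major MØ-like cells, as reported (diamonds) and under each alternative processing (grey points). The ratios in Phagocytic MØ-like cells and all leukocytes stay above 0 under each alternative, and in Major MØ-like cells the sum reaches -0.02 with TMM factors.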

How the data were processed

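Live CD45+ VAT cells were sequenced in 1 CR and 1 obese library. The authors aligned reads with Cell Ranger to mm10 and deposited raw UMI counts per gene and barcode. Seurat is also named in the submitters' notes, and versions are not given in the sources used here. Cells with at least 200 genes and mitochondrial shares and UMIs within 3 median absolute deviations were kept. The libraries were aligned and clustered on 707 shared variable genes, without sterol and fatty acid genes, into 20 clusters at resolution 0.6. A cluster was named "X-like" from marker lists, with naming thresholds set after the data were seen, and names may differ from the authors' own. T cell markers Trac and Trbc2 were not matched, so 7 of 9 were used. Doublets were left in, and an alternative removed the 5% of cells with the highest scores.

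UMIs were summed per class and library and divided by the class total (CPM). Levels have exact Poisson intervals and ratios have exact conditional binomial intervals, both at 95%, and differences of log2 ratios have intervals from the delta method. The fold of 1.5 was applied with 5 CPM added to each side, and backgrounds used genes with 20 UMIs. With 1 library per group no test was run. All 8 members are named, with the 4 largest differences of each other list, any further gene past the fold where a count is spelled out, and the 10 genes most alike. Some genes of these lists are not reported here. The members and lists were chosen with earlier results of these data known. The ratio and interval code was tested on simulated data. Coordinates are from GENCODE vM21 and promoters from RefSeq (GRCm38.p6). Python 3.11.15, numpy 2.4.6, scipy 1.17.1, pandas 2.3.3, scikit-learn 1.9.0, python-igraph 0.11.9 and matplotlib 3.10.9 were used.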

Additional observations from a re-analysis of the deposited data

How the results depend on the processing

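Results were recomputed under 14 other settings and 4 chosen after seeing the data, 12 to 17 of these for each result (no CPM minimum, Phagocytic MØ-like cells under 5 MHC class II UMIs, no cycling class, and cells with no stromal marker UMI). Of 495 alternative values, 438 stayed within the spread of the reported value. Of the 360 ratios among them, 35 changed sign, 27 of which had a reported interval that included 0 and 8 of which had one that excluded it. The log2 ratio of Insig1 lay between 0.63 and 0.98 in all leukocytes and between 0.83 and 1.48 in Phagocytic MØ-like cells. In cells thinned to 1500 UMIs, Idi1 was -0.093 in all leukocytes, and Hmgcs1 was -0.28 and Idi1 -0.085 in Phagocytic MØ-like cells. With TMM factors Fdps was -0.0077 in all leukocytes. In cells with no stromal marker UMI, Hmgcs1 was -0.29 and Idi1 -0.21 in all leukocytes, and Hmgcs1 was -0.066 and Idi1 -0.036 in Phagocytic MØ-like cells. The sum in all leukocytes was 0.48 when thinned, 0.19 with TMM factors and 0.18 with no stromal marker UMI. In Phagocytic MØ-like cells it was 0.44 without alignment and 0.41 in cells under 5 MHC class II UMIs, and in Major MØ-like cells 0.28 as the mean of per-cell CPM. In Major MØ-like cells 1 member was past the fold upwards with no cell filter, no alignment, resolution 0.3 or 1.0, a marker gate per cell, per-cell CPM, thinning or 1 CPM added, and 1 downwards when thinned. In Phagocytic MØ-like cells 1 member was past it without alignment, with per-cell CPM, 20 CPM added, a fold of 2, the highest doublet scores removed or under 5 MHC class II UMIs, and 5 with 1 CPM added. In all leukocytes 0 members were past a fold of 2. The share of all genes past the fold upwards moved with the settings too. It ranged from 2.25% to 11.5% in Major MØ-like cells, 2.3% to 12.8% in Phagocytic MØ-like cells and 2.6% to 13.2% in all leukocytes. The causes were not tested. In the 38 CR and 1072 obese Major MØ-like cells with no stromal marker UMI, under the minimum of 50 cells, the ratio was 1.00 (0.677 to 1.43) for the sum and 1.84 (0.871 to 3.43) for Insig1. No paired analysis was possible because each group was 1 library, and no replicate could be left out. Intervals cover counting error only.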
